A study of Mus musculus with 161 samples.

Results

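The genes Socs1, Socs2, Socs3 and Cish of the suppressor of cytokine signalling (SOCS) family were followed in mouse macrophages that were polarized, returned to base medium or switched between stimuli. The genes were chosen by name. All 4 were listed among the 8307 genes of the bulk RNA-seq matrix, which holds only genes above 10 FPKM (fragments mapped to a gene, scaled by transcript length and library size) in at least 1 library, and all 4 were listed among the 27998 genes of the single-cell matrices. The other 4 members of the family, Socs4, Socs5, Socs6 and Socs7, were also measured and are given at the end of the bulk results.

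The study grew bone marrow-derived macrophages for 7 days in M-CSF from C57BL/6J mice aged 6 to 10 weeks. M0 cells stayed in base medium, M1 cells were given LPS (100 ng/mL), a bacterial wall lipid, together with IFN-γ (25 ng/mL), and M2 cells were given IL-4 (25 ng/mL). After 24 h some cells were washed and placed in base medium (M1→M0, M2→M0), in the opposite stimulus (M1→M2, M2→M1) or again in the same stimulus (M1→M1, M2→M2). Bulk RNA-seq covered 48 conditions with 145 libraries, ATAC-seq, which counts transposase cuts in open chromatin, covered 0 h M0, 24 h M1 and 96 h M1→M0 with 3 libraries each, and single cells were sequenced from 7 conditions, 1 library for each. Bulk conditions had 3 libraries, except 48 h M0 with 2, and 96 h M0 and 28 h M2→M1 with 4. Times are hours since the first stimulus, so 26 h M1→M2 is 2 h after the switch. All cells were cultured macrophages of wild type mice, and replicates are labelled biological, with no word on whether mice or cultures were separate, so that the tests rest on the spread between libraries, which may be technical.

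Cytokine receptors signal through Janus kinases (JAKs), which phosphorylate STAT transcription factors, and activated STATs switch on SOCS genes, whose proteins then act back on the same receptors. Socs1 and Socs3 carry a short region that inhibits the kinases directly, and Socs1 is the known brake on IFN-γ signalling while Socs3 restrains receptors that use the gp130 chain. Cish and Socs2 lack that region, bind phosphorylated receptor tails and are known as targets of STAT5. All family members share a SOCS box, which recruits a ubiquitin ligase built on Cul5.

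The promoter windows of 3 members are shown because activated STATs bind short palindromes of the form TTCNNNGAA, and interferon-activated complexes and IRF proteins bind paired GAAA repeats. The sequences are from RefSeq on GRCm38.p6, written 5′ to 3′ on the strand of the gene, and they are shown up to the annotated start, except for Cish, where the stretch runs from 50 bases before to 20 bases after the start. Capitals mark matches to TTCNNNGAA (Socs3 and Cish) or GAAANNGAAA (Socs1). The window of Socs1 is chr16:10785537-10785786 (minus strand), that of Socs3 is chr11:117969367-117969616 (minus strand) and the stretch of Cish is chr9:107296609-107296678 (plus strand). The RefSeq starts of Socs3 and Cish lie inside the GENCODE genes given below. Socs2 had no entry in the promoter table.
Socs1: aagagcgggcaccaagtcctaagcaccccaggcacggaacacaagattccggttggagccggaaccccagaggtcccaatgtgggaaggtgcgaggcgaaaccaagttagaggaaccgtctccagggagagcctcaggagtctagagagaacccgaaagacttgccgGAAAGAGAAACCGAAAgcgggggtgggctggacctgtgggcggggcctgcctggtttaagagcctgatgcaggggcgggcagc
Socs3: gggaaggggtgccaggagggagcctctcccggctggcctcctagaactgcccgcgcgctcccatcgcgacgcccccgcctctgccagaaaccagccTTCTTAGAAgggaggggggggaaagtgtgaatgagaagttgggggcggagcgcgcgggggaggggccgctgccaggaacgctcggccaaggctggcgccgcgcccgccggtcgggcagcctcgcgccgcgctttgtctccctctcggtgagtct
Cish: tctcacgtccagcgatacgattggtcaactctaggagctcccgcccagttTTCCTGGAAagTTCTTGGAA

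Socs1 held 2 overlapping matches to GAAANNGAAA, starting 83 and 77 bases before the start. Socs3 held 1 match to TTCNNNGAA, TTCTTAGAA, starting 154 bases before it. Cish held 2 matches to TTCNNNGAA, TTCCTGGAA and TTCTTGGAA, both within the first 20 bases after the start. Both strands were searched. Among all 32851 promoter windows in the table, 8.3% held TTCNNNGAA and 3.44% held GAAANNGAAA within 300 bases. None of the 3 windows held TTCNNNNGAA, the wider spacing that STAT6 also binds, which was present in 6.95% of windows. A match describes letters only. Each stretch shown lies inside an ATAC-seq site described below.

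The annotation used was GENCODE vM21 on mm10. Socs1 lies at chr16:10782240-10785536, Socs2 at chr10:95385362-95417180 and Socs3 at chr11:117966079-117970047, all on the minus strand and with no overlapping gene. Cish, at chr9:107296026-107302784 on the plus strand, overlaps the minus-strand genes Gm17040 and Gm17041, and the library kit does not mark strand, so reads from these genes and from Cish cannot be told apart.

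The listed FPKM summed to between 354027 and 710082 per bulk library, and no read counts were used, so depth is unknown. Libraries numbered 1 stood apart for these genes as well. Replicate 1 was the lowest library for Socs1 in 33 of 48 conditions and the highest for Cish in 27 of 48, with a mean difference from the other libraries of -0.28 for Socs1 and 0.57 for Cish in log2(FPKM + 1). Markers of macrophages were high in all bulk libraries (6 of 7 genes measured, summed level 2947 to 11720 FPKM). Neutrophil markers ranged from 2.05 to 5411 FPKM in sum (8 of 8 measured), fibroblast markers from 0.02 to 128 (2 of 3), B cell markers from 0.03 to 95.3 (1 of 4), dendritic cell markers from 0.01 to 66.4 (1 of 4) and megakaryocyte markers from 22.6 to 868.9 (2 of 2), and no marker of T and NK cells, mast cells or erythroid cells was listed. Between 0 h and 4 h, 4 of the 8 neutrophil markers fell in M1 and 6 of 8 in M2 (median log2 fold change -1.33 and -1.76), and the 1 dendritic cell marker measured, Fscn1, rose in M1 (4.81). Their part in the results was not tested. In bulk samples more RNA per cell and more cells of an expressing type cannot be told apart.

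The members divided the first day of M1 and M2 polarization between them. Socs3 led the M1 response within 1 h, Socs1 rose in both responses and stayed high in M1, Cish rose in both but lasted only in M2, and Socs2 rose only in tests of M2. Of 24 tests of M1 against 0 h M0 (4 members at 6 times), 17 passed, all higher in M1, and of 24 tests of M2 against 0 h M0, 20 passed, 18 higher and 2 lower. Among all genes, 4.85%, 42.6%, 62.9%, 67.3%, 64.4% and 61.2% passed at the 6 times of M1 from 1 to 24 h, and 1.16%, 21.9%, 40.3%, 44.5%, 38.3% and 32.4% at those of M2. All of these tests share the 3 libraries of 0 h M0. No M0 library of any of the 4 members was above 10 FPKM, so they are in the matrix only through stimulated cells. A rise from M0 was therefore partly set by that filter.

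**Figure D1:**
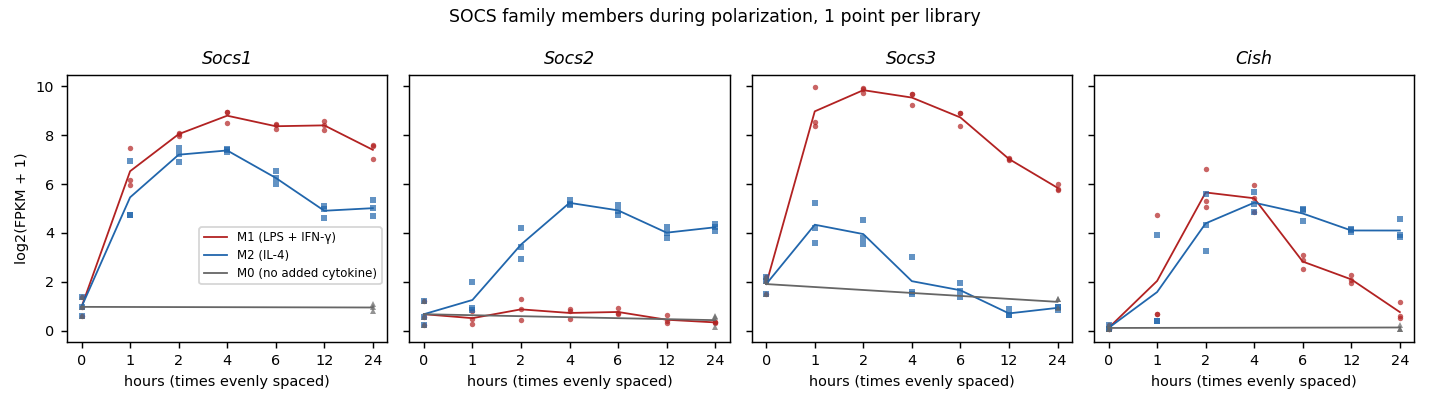
Levels of Socs1, Socs2, Socs3 and Cish, as log2(FPKM + 1), over the first 24 h in M0, M1 and M2 cells. Points are libraries and lines join condition means. The time axis is evenly spaced, not to scale. Socs3 peaks at 2 h of M1 with a mean of 919 FPKM, Socs1 at 4 h with 449 FPKM, and Socs2 leaves the base level only in M2.

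Socs1, the inhibitor of IFN-γ signalling, was at 0.50, 1.61 and 0.94 FPKM in the 3 libraries of 0 h M0. In M1 it reached 177, 70.2 and 60.8 FPKM at 1 h, 273.7, 264.9 and 250.1 FPKM at 2 h, and 359, 497 and 490.4 FPKM at 4 h. No M1 library came near the base level at any time. The mean was 449 ± 77.8 FPKM (SD, n = 3) at 4 h and still 171 ± 34.8 FPKM at 24 h, and the log2 fold change against 0 h M0 was 7.82 (SE 0.38, adjusted p = 1.09e-35) at 4 h and 6.43 (adjusted p = 2.7e-29) at 24 h.

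IL-4 raised the same gene to a lower peak. In M2 cells Socs1 was at 121.5, 25.3 and 25.3 FPKM at 1 h and at 170.5, 166 and 158.9 FPKM at 4 h, and then fell back to a plateau, with 23.4, 33.6 and 31 FPKM at 12 h and 39.2, 31.8 and 24.6 FPKM at 24 h. The log2 fold change was 6.40 (adjusted p = 1.08e-27) at 4 h and 4.04 (SE 0.38, adjusted p = 8.65e-16) at 24 h. At 24 h the M1 level exceeded the M2 level by 2.39 on the log2 scale (adjusted p = 3.89e-08; 66.4% of all genes passed), and the libraries did not overlap. At 1 h of M2 replicate 1 stood far above the other libraries. The call was lost when only the libraries of the 2 conditions were fitted (log2 fold change 4.48, adjusted p = 0.194). In that fit 0 of 8307 genes passed.

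Socs3, the inhibitor of gp130 receptors, was at 3.08, 3.56 and 1.84 FPKM at 0 h. After 1 h of M1 it was at 1012.9, 335.7 and 372.9 FPKM, after 2 h at 835.9, 941.5 and 980.9 FPKM, and after 24 h at 63.1, 54 and 53.1 FPKM. The rise was therefore complete within 2 h and the 24 h level was far below the peak while still above every base library. The log2 fold change was 7.07 (SE 0.30, adjusted p = 8.06e-39) at 1 h, 7.93 (adjusted p = 3.43e-43) at 2 h and 3.94 (adjusted p = 4.4e-22) at 24 h.

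In M2 cells Socs3 rose briefly and then fell below its starting level. It was at 36.8, 11 and 17.2 FPKM at 1 h, where the log2 fold change was 2.43 (SE 0.30, adjusted p = 1.75e-09), and at 21.9, 10.8 and 12.7 FPKM at 2 h. By 12 h the libraries held 0.55, 0.83 and 0.54 FPKM, all below the base libraries (fell by 1.20 on the log2 scale, adjusted p = 0.000766), and at 24 h 0.97, 0.79 and 0.97 FPKM (fell by 0.97, adjusted p = 0.0078). The fall at 24 h did not pass without replicate 2 (adjusted p = 0.138) or without replicate 3 (0.0522), and against the M0 cells of 24 h, which were at 0.92, 1.48 and 1.45 FPKM, it did not pass (adjusted p = 0.573; 33.6% of all genes passed). The rise at 1 h was not called when only the 2 conditions were fitted (adjusted p = 0.324), where 0 of 8307 genes passed.

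Cish, which binds receptors that signal through STAT5, was nearly absent at 0 h, with 0.17, 0.04 and 0.04 FPKM. In M1 cells it was at 96, 32 and 39 FPKM at 2 h and 28.1, 61.1 and 42.4 FPKM at 4 h, then at 6.38, 7.51 and 4.71 FPKM at 6 h and 1.27, 0.51 and 0.42 FPKM at 24 h. The pulse thus stood high at 2 and 4 h, and most of it was gone by 6 h. Its log2 fold change was 5.54 (SE 0.54, adjusted p = 9e-16) at 2 h, 5.31 (adjusted p = 2.6e-15) at 4 h, 2.72 (adjusted p = 6.36e-06) at 6 h and 1.99 (adjusted p = 0.000895) at 12 h.

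The 2 ends of this pulse depended on details. At 1 h of M1, Cish was at 25.8, 0.60 and 0.60 FPKM, so replicate 1 decided the call (log2 fold change 1.92, adjusted p = 0.0166; 0.63, adjusted p = 0.603, without replicate 1). It was also not called without replicate 3 (adjusted p = 0.0539) or when only the 2 conditions were fitted, where 6 of 8307 genes passed. At 24 h of M1 it did not pass (log2 fold change 0.65, adjusted p = 0.303), but it passed with 0.1 FPKM instead of 1 FPKM added before the log (adjusted p = 0.0166) and when only the 2 conditions were fitted (0.0211).

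In M2 cells Cish rose more slowly and stayed. The libraries held 14.2, 0.33 and 0.32 FPKM at 1 h, 47.7, 8.51 and 19 FPKM at 2 h, 50.3, 27.7 and 35.6 FPKM at 4 h and 22.9, 13.1 and 14 FPKM at 24 h. The 1 h value did not pass (log2 fold change 1.47, adjusted p = 0.22; 0.0325 with 0.1 FPKM added). Every library from 2 h on was above all base libraries. The log2 fold change was 5.13 (SE 0.54, adjusted p = 8.4e-14) at 4 h and 3.99 (adjusted p = 2.48e-09) at 24 h, and at 24 h M1 lay below M2 by -3.34 (adjusted p = 6.36e-08).

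Socs2, known for restraining growth hormone signalling, was at 0.19, 0.45 and 1.35 FPKM at 0 h and ranged from 0.21 to 1.44 FPKM over the 18 M1 libraries of the first day. None of its 6 M1 tests passed, although the fall at 24 h passed without replicate 1 (log2 fold change -0.53, adjusted p = 0.0491). In M2 it was at 17.6, 6.70 and 9.61 FPKM at 2 h, 35.5, 34.2 and 40.2 FPKM at 4 h and 19.5, 16 and 18.1 FPKM at 24 h. These M2 libraries were all above the base libraries. Every Socs2 library above 10 FPKM came from cells given IL-4 first, so its rise in M2 was partly set by the filter of the matrix. The log2 fold change was 2.85 (SE 0.25, adjusted p = 3.08e-17) at 2 h, 4.56 (adjusted p = 1.54e-30) at 4 h and 3.56 (adjusted p = 1.49e-23) at 24 h, and M1 lay below M2 by -3.89 at 24 h (adjusted p = 2.51e-27).

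The first 24 h in base medium moved none of the 4 genes past the test. In 24 h M0 against 0 h M0 the adjusted p-values were 0.99 for Socs1, 0.759 for Socs2, 0.233 for Socs3 and 0.994 for Cish. Among all genes 1.64% passed. Later M0 times were not tested against 0 h. Every Socs3 library of 24, 48 and 96 h M0 (highest 1.48, 0.84 and 1.16 FPKM) lay below the lowest of 0 h (1.84 FPKM). Against 24 h M0, the 24 h M1 cells were higher in Socs1 (log2 fold change 6.45, adjusted p = 2.2e-29) and Socs3 (4.67, adjusted p = 7.53e-27), with 60.5% of all genes passing. The 24 h M2 cells were higher in Socs1 (4.06, adjusted p = 6.06e-16), Socs2 (3.80, adjusted p = 1.93e-25) and Cish (3.97, adjusted p = 2.47e-09).

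When the stimulus was removed, the members left at different speeds. After M1, Socs1 went from 171 FPKM at 24 h to 31.2, 75.2 and 75.3 FPKM at 1 h, 9.81, 39.5 and 35.4 FPKM at 2 h and 3.66, 7.82 and 10.9 FPKM at 4 h in base medium. It fell by 2.75 on the log2 scale in 2 h (SE 0.38, adjusted p = 1.38e-07; 3.09% of all genes passed), and at 48 h M1→M0 lay below M1→M1 by -5.05 (adjusted p = 1.22e-21; 23.8% passed). The 2 h call was lost when only the 2 conditions were fitted (adjusted p = 0.0733). At 96 h Socs1 was at 1.58, 1.87 and 2.36 FPKM in M1→M0 and at 0.66, 0.74, 1.82 and 0.74 FPKM in M0, a difference that did not pass (adjusted p = 0.282; 17.9% passed) but did without replicate 1 (log2 difference 0.60, adjusted p = 0.0258).

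Socs3 left M1 cells in a similar way, from 56.8 FPKM at 24 h to 7.55, 19.6 and 11.9 FPKM at 26 h and 1.10, 0.91 and 1.14 FPKM at 48 h. It fell by 2.13 in 2 h (SE 0.30, adjusted p = 2e-07) and lay below M1→M1, which held 65.7, 47.5 and 29.2 FPKM, by -4.49 at 48 h (adjusted p = 5.91e-25). Cells kept in M1 thus held Socs1 and Socs3 above every base library to 96 h, with Socs1 at 70.7, 65.7 and 64.1 FPKM and Socs3 at 50, 44.4 and 22.4 FPKM.

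After IL-4 was removed, Socs1 was at 1.20, 13.2 and 7.95 FPKM at 1 h and at 0.53, 2.14 and 0.93 FPKM at 2 h, so it was within reach of the 0 h libraries in 2 h, with 1 library above them (fell by 3.94, SE 0.38, adjusted p = 5.09e-14; 6.72% of all genes passed). Cish was at 1.39, 0.27 and 0.06 FPKM at the same time (fell by 3.54, SE 0.54, adjusted p = 8.48e-07). Socs2 was slower: it held 10.5, 9.10 and 9.71 FPKM at 26 h, 4.67, 6.20 and 7 FPKM at 28 h, 1.63, 1.95 and 2.11 FPKM at 36 h and 0.85, 0.79 and 1.38 FPKM at 48 h. The fall of Socs2 in the first 2 h was 0.81 on the log2 scale (adjusted p = 0.0287) and did not pass without replicate 2 (adjusted p = 0.155), without replicate 3 (0.412) or with 0.1 FPKM added before the log (0.33), whereas at 48 h M2→M0 lay below M2→M2 by -3.48 (adjusted p = 1.15e-22; 13.4% passed). At 48 h Socs1 lay below M2→M2 by -4.11 (adjusted p = 5.04e-16) and Cish by -4.39 (adjusted p = 1.7e-10).

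At 96 h none of the 4 genes passed the test of M2→M0 cells against M0 cells (lowest p before adjustment 0.102; 0.373% of all genes passed). In M1→M0 cells Socs2 was at 0.10, 0.11 and 0.07 FPKM at 96 h and in M0 cells at 0.48, 0.27, 2.08 and 1.04 FPKM, lower by -0.76 (SE 0.23, adjusted p = 0.0119). This call was lost without replicate 3 (log2 difference -0.50, adjusted p = 0.444) and when only the 2 conditions were fitted (adjusted p = 0.0946).

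**Figure D2:**
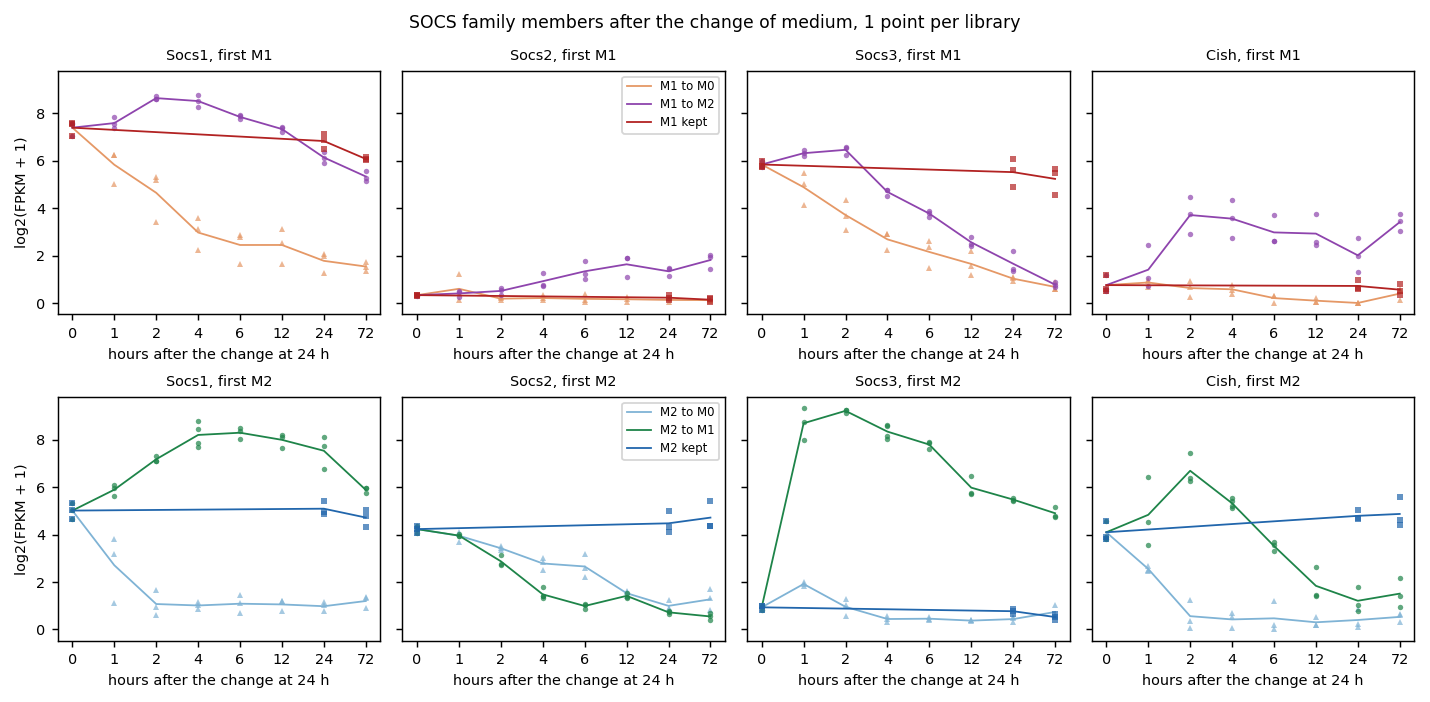
Levels of the members, as log2(FPKM + 1), in cells first held for 24 h in M1 (top row) or M2 (bottom row) and then moved to base medium, to the opposite stimulus or kept. Points are libraries, lines join condition means and the time axis is evenly spaced. In the top row Socs2 stays low after IL-4 in former M1 cells, with a highest mean of 2.59 FPKM, and in the bottom row Cish reaches its highest mean of all conditions, 110 FPKM, at 2 h after the switch to M1.

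The switch from M1 to IL-4 compares former M1 cells with cells that meet IL-4 first, at the same number of hours after IL-4. Socs2 and Cish were lower in the former M1 cells, and Socs1 and Socs3 were higher. Of 28 tests (4 members at 7 times), 23 passed: 6 of 7 higher for Socs1, 6 of 7 higher for Socs3, 7 of 7 lower for Socs2 and 4 of 7 lower for Cish. Among all genes, 60.7%, 62.5%, 64.5%, 62.0%, 55.9%, 53.9% and 21.5% passed at 1, 2, 4, 6, 12, 24 and 72 h after the switch.

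Socs2 stayed low after IL-4 in former M1 cells, with means of 0.33 FPKM at 25 h, 2.21 at 36 h and 2.59 at 96 h. In former M1 cells in base medium Socs2 was at 0.60, 0.12 and 0.09 FPKM at these times, a pair that was not tested. It was at 0.65, 0.72 and 1.42 FPKM in 28 h M1→M2, against 35.5, 34.2 and 40.2 FPKM in M2 cells after the same 4 h of IL-4, and the libraries were far apart (log2 difference -4.31, SE 0.25, adjusted p = 3.15e-30). At 48 h it was at 1.20, 1.77 and 1.69 FPKM (-2.89, adjusted p = 1.56e-18 against 24 h M2), and after 72 h of IL-4 at 1.75, 3.15 and 2.86 FPKM against 41.8, 19.6 and 19.6 FPKM in M2→M2 (-2.90, adjusted p = 4.41e-18). At 1 h the difference was small (-0.85, adjusted p = 0.00211) and was not called without replicate 1 (-0.49, adjusted p = 0.0707) or when only the 2 conditions were fitted (0.051).

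The effect of 24 h of IL-4 was also compared directly between histories, as M1→M2 minus M1→M0 at 48 h set against M2 minus M0 at 24 h. For Socs2 this difference of effects was -2.59 (SE 0.35, adjusted p = 2.52e-08), and 6.32% of all genes passed. For Cish it was -1.96 (SE 0.77) and did not pass (adjusted p = 0.117), but it passed without replicate 1 (-2.14, adjusted p = 0.000209) and when only the 4 conditions were fitted (adjusted p = 0.0267). For Socs1 (0.29, adjusted p = 0.833) and Socs3 (0.88, adjusted p = 0.23) it did not pass.

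Cish reached an intermediate level in former M1 cells. It was at 0.61, 0.20 and 0.94 FPKM in 26 h M1→M0, and with IL-4 it was at 21.1, 12.7 and 6.52 FPKM at 26 h, 19.4, 11 and 5.75 FPKM at 28 h and 5.71, 3.01 and 1.46 FPKM at 48 h, compared with 22.9, 13.1 and 14 FPKM in 24 h M2. Replicate 1 was the highest of each set. The difference passed at 28 h (-1.68, SE 0.54, adjusted p = 0.00508), 30 h (-1.81, adjusted p = 0.0026), 48 h (-2.08, adjusted p = 0.000747) and 96 h (-1.45, adjusted p = 0.0427). Without replicate 3 none of these 4 calls was kept (adjusted p = 0.165, 0.0985, 0.0593 and 0.177), and the call at 96 h was also lost without replicate 2 (0.251), with 0.1 FPKM added (0.174) and with libraries scaled to an equal sum (0.0645). At 36 h it did not pass (-1.17, adjusted p = 0.06) but did without replicate 1 (-1.62, adjusted p = 3.6e-06) and with libraries scaled to an equal sum (0.0431).

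Socs1 stood high when IL-4 was given to M1 cells. It was at 171 FPKM at 24 h M1 and, in a pair that was not tested, at 386.8, 394.4 and 419.7 FPKM at 26 h M1→M2, while cells washed into base medium were at 9.81, 39.5 and 35.4 FPKM at that time. It was higher than in first M2 cells by 1.45 at 2 h after IL-4 (SE 0.38, adjusted p = 0.000627) and by 2.43 at 12 h (adjusted p = 4.11e-08). By 48 h it was at 59.2, 82.3 and 69.6 FPKM (1.13, adjusted p = 0.00918), and at 96 h, with 47.2, 34.2 and 38.3 FPKM against 32.1, 26.7 and 19 FPKM in M2→M2, it did not pass (adjusted p = 0.268), although it did without replicate 1 (adjusted p = 0.026). The calls at 28 h and 48 h were lost without replicate 2 (adjusted p = 0.0885 and 0.105) and without replicate 3 (0.0905 and 0.175).

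Socs3 also stood above first M2 cells and then declined. It was at 63.1, 54 and 53.1 FPKM at 24 h M1, at 75.3, 96.2 and 92.4 FPKM at 26 h M1→M2, 26.3, 26.3 and 22.2 FPKM at 28 h, 5.89, 4.71 and 4.27 FPKM at 36 h and 3.62, 1.53 and 1.72 FPKM at 48 h. The 26 h libraries were all above those of 24 h M1, which was not tested, and from 28 h the levels went down. Each set lay above the first M2 cells of the same time (2.51 at 2 h, SE 0.30, adjusted p = 2.99e-12; 1.86 at 12 h, adjusted p = 9.45e-08). At 24 h after the switch the difference was 0.73 (adjusted p = 0.0335) and was not called without replicate 1 (adjusted p = 0.0649), replicate 2 (0.0691) or replicate 3 (0.116).

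The opposite switch, from IL-4 to M1, was compared in the same way with cells that met M1 first. Of 28 tests 8 passed (12 without replicate 1, 5 without replicate 2 and 4 without replicate 3): 4 of 7 higher for Socs2, 3 of 7 lower for Socs3, 1 of 7 higher for Cish and none of 7 for Socs1. Among all genes, 37.3%, 32.5%, 25.0%, 18.6%, 22.2%, 18.9% and 12.0% passed at 1, 2, 4, 6, 12, 24 and 72 h after the switch, so the members' share lay within the range over all genes. No member passed the direct comparison of M1 effects between histories at 24 h, which 7.33% of all genes passed.

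Socs3 was induced in former M2 cells to a lower level than in first M1 cells. It was at 562.6, 612.3 and 611.8 FPKM after 2 h, below the 835.9, 941.5 and 980.9 FPKM of 2 h M1 in every library, but this did not pass (-0.62, adjusted p = 0.103), though it did without replicate 1 (0.0172) and when only the 2 conditions were fitted (0.0195). At 4 h it was at 286, 258.7, 381.3 and 390.5 FPKM against 603.8, 832.2 and 816.5 FPKM (-1.19, SE 0.28, adjusted p = 0.000566), at 6 h the difference was -0.93 (adjusted p = 0.0191) and at 12 h -1.05 (adjusted p = 0.00613). The calls at 6 h and 12 h were lost without replicate 2 (adjusted p = 0.129 and 0.0884) and without replicate 3 (0.283 and 0.24), and at 6 h also with 0.1 FPKM added (0.0591).

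Cish had its highest level of all 48 conditions here. At 26 h M2→M1 it was at 173, 75.5 and 82.1 FPKM against 96, 32 and 39 FPKM in 2 h M1, higher in each numbered library, and the log2 difference of 1.04 did not pass (SE 0.54, adjusted p = 0.137) but passed without replicate 1 (1.13, adjusted p = 0.00125). It passed only at 1 h after the switch (2.80, adjusted p = 1.45e-05), with 84.9, 10.7 and 22.2 FPKM, where the cells started from an M2 level of 16.6 FPKM, and this call was lost when only the 2 conditions were fitted (adjusted p = 0.165). By 48 h Cish was at 2.51, 1.04 and 0.73 FPKM.

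Socs2 drained faster under M1 stimuli than in base medium, by its levels. It was at 1.66, 2.45, 1.65 and 1.48 FPKM in 28 h M2→M1 and at 4.67, 6.20 and 7 FPKM in 28 h M2→M0, with no overlap, and this pair was not tested. It remained above first M1 cells at 1 h (3.45, SE 0.25, adjusted p = 1.09e-22), 2 h (2.00, adjusted p = 8.69e-11), 4 h (0.75, adjusted p = 0.00992) and 12 h (0.97, adjusted p = 0.00184). Without replicate 3 the calls at 4 h and 12 h were lost (adjusted p = 0.0903 and 0.0815), and at 4 h also without replicate 2 (0.064). Socs1 was at 137.8, 136.7 and 158.1 FPKM in 26 h M2→M1, below the 273.7, 264.9 and 250.1 FPKM of 2 h M1 in every library, and did not pass (-0.86, SE 0.38, adjusted p = 0.0717), but did with the replicate number as a block (adjusted p = 0.0453), with median-ratio scaling (0.0429), when only the 2 conditions were fitted (0.00411) and without replicate 1 (0.00367).

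**Figure D3:**
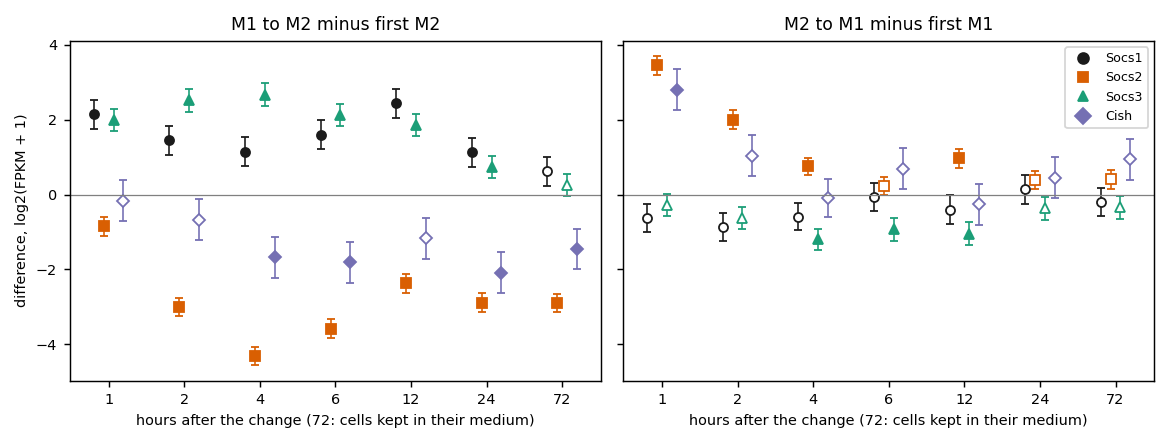
Difference in log2(FPKM + 1) between switched cells and cells that met the same stimulus first, by hours after the change; the last point is set against cells kept in 1 stimulus. Points are differences of condition means, bars are standard errors, and filled points passed the test. On the left Socs2 lies between -0.85 and -4.31 and Socs1 and Socs3 lie above 0. On the right all differences from 4 h on lie between -1.19 (Socs3 at 4 h) and 0.97 (Socs2 at 12 h).

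Over all 48 conditions Socs1 was highest in 4 h M1 (449 FPKM) and lowest in 48 h M0 (0.88 FPKM), and 32 conditions had a mean above 10 FPKM. Socs3 was highest in 2 h M1 (919 FPKM) and lowest in 36 h M2→M0 (0.30 FPKM), with 23 conditions above 10 FPKM. Cish was highest in 26 h M2→M1 (110 FPKM) and lowest in 48 h M1→M0 (0.0058 FPKM, with 1 library listed at 0), with 15 above 10 FPKM. Socs2 was highest in 4 h M2 (36.6 FPKM) and lowest in 96 h M1→M0 (0.09 FPKM), with 9 above 10 FPKM, and these 9 were M2 cells from 2 h on, M2→M2 cells and cells 1 h after IL-4 had been removed or replaced. When the conditions were ordered by mean, the libraries of neighbours overlapped in 46 of 47 pairs for Socs1 and 44 for Socs2. For Socs3 they overlapped in 41 pairs and for Cish in 46. The order of direct neighbours is thus mostly not firm. Conditions further apart in the order were not compared in this way.

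Patterns over the 48 condition means were compared by Pearson correlation of log2(FPKM + 1) as a description, since conditions share cells and time courses. Socs1 and Socs3 had r = 0.763, Socs1 and Cish 0.647, Socs2 and Cish 0.586, Socs1 and Socs2 0.0082, Socs3 and Cish 0.437, and Socs2 and Socs3 -0.275. The genes most like Socs1 were Rnf19b (0.93), Zbtb5 (0.903) and the chemokine Ccl12 (0.898). The genes most like Socs2 were Cdh1 (0.97), which encodes E-cadherin, Msx3 (0.965), a homeobox gene, and Limk1 (0.942), a kinase of the actin cytoskeleton, although Limk1 ranked only 64 by Spearman correlation (0.805). Socs3 was most like Nfkbia (0.961), the inhibitor of NF-κB, Map3k8 (0.959), a kinase of the LPS pathway, and Pim1 (0.958), a kinase induced by cytokines. For Cish the values were lower: Slc30a4 (0.87), a zinc transporter, Tfec (0.862) and Batf3 (0.846), both transcription factors.

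The rest of the family had narrower ranges. Over the 48 conditions the means ranged from 4.14 to 12.2 FPKM for Socs4, from 2.26 to 14.5 for Socs5, from 7.76 to 34.3 for Socs6 and from 2.99 to 18.4 for Socs7. Socs7 rose in M1 (18.4 against 3.36 FPKM at 4 h, log2 fold change 2.15, adjusted p = 2.95e-23), and it passed in 4 of 6 M1 tests and none of 6 M2 tests. Socs4 was higher in 2 of 6 M1 tests, by 0.68 at 2 h (adjusted p = 0.0183) and 1.03 at 24 h (adjusted p = 0.000161), and Socs5 was higher at 2 h of M1 (0.94, adjusted p = 7.35e-06) and lower at 6 h (-0.51, adjusted p = 0.00961). Socs5 rose in M2 (14.5 against 4.25 FPKM at 4 h, 1.56, adjusted p = 3.98e-12) and passed in 5 of 6 M2 tests, and after M1 it was lower in 28 h M1→M2 than in 4 h M2 (-1.02, adjusted p = 6.55e-07). In the 7 tests of M1→M2 against first M2 cells, which 21.5% to 64.5% of all genes passed, Socs4 was higher in 6, Socs7 higher in 6, Socs5 lower in 4, and Socs6 higher in 1 and lower in 3. Socs6 was lower in 4 of 6 M1 tests, by -0.46 at 4 h (adjusted p = 0.00417).

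The counts for the other parts of the pathway stand beside 62.9% of all genes passing at 4 h of M1 and 40.3% at 4 h of M2. At 4 h of M1, 9 of the 10 measured JAK and STAT genes were higher and 1 lower (median log2 fold change 1.86 against 0.09 for all genes), among them Jak2 (4.48, adjusted p = 4.38e-31), Stat5a (3.71) and Stat2 (3.69). At 4 h of M2, 2 were higher and 5 lower (median -0.16 against 0.006), with Jak2 (2.27, adjusted p = 6.31e-13) and Stat5a (0.72, adjusted p = 0.00657) as the 2 that rose.

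Of 16 measured receptor chains, 10 were higher and 4 lower at 4 h of M1 (median 0.75) and 7 higher and 3 lower at 4 h of M2 (median 0.07). Il4ra, the IL-4 receptor chain, rose in both (3.02, adjusted p = 4.52e-18 in M1; 1.81, adjusted p = 2.51e-08 in M2), Il6ra fell in M1 by 3.03 (adjusted p = 4.85e-36), and Il6st, the gp130 chain that Socs3 restrains, rose in M2 (1.95, adjusted p = 3.46e-14). Of 11 ligands, 9 were higher and none lower at 4 h of M1 (median 3.86), led by Il27 (9.14), Il6 (9.01) and Il12b (8.50), while in M2 1 was higher, Csf1 (2.11, adjusted p = 2.31e-06), and 2 were lower. Among 12 other inhibitors of the pathway, 6 were higher and 3 lower in M1 (median 0.40), with the interferon-induced protease Usp18 at 6.29 (adjusted p = 4.59e-42) and the phosphatase gene Ptpn2 at 2.37, and 4 were higher and 2 lower in M2 (median 0.12). Of 5 measured partners of the SOCS box ubiquitin ligase, 2 were higher in M1, Tceb1 (0.95, adjusted p = 2.42e-07) and Cul5 (0.40, adjusted p = 0.0165), and Cul5 in M2 (0.56, adjusted p = 0.0015). Summed FPKM was higher in 4 h M1 than in 0 h M0, and values of these genes with libraries scaled to an equal sum are not given here.

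Genes of the IL-4 receptor and its STATs were picked for display after their values were seen, and their part in the levels of Socs2 and Cish was not tested. At 48 h M1→M2 against 24 h M2, a comparison that 53.9% of all genes passed, Il4ra was at 37.7 against 11.4 FPKM (1.65, adjusted p = 2.06e-07), Il2rg, the shared receptor chain, at 181 against 72.3 FPKM (1.31, adjusted p = 4.14e-08) and Stat6, the IL-4 transcription factor, at 95.7 against 61.7 FPKM (0.63, adjusted p = 4.22e-08), while Stat5a was lower (-0.57, adjusted p = 0.025). The difference of IL-4 effects was 1.58 for Il4ra (adjusted p = 0.00388). It did not pass for Il2rg (-0.54, adjusted p = 0.287), Stat6 (0.13, adjusted p = 0.663) or Stat5a (-0.27, adjusted p = 0.712). In the reverse switch, Il4ra was lower in 28 h M2→M1 than in 4 h M1 (-1.57, adjusted p = 5.88e-07).

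ATAC-seq asked whether chromatin near these genes opened in M1 and returned after washout. Totals over the 150203 sites ranged from 1730488 to 9354620 counts per library, lowest in replicate 3 of 24 h M1. Of 137586 sites tested, 25 lay from 10 kb before to 10 kb after a member: 3 for Socs1, 4 for Socs2, 9 for Socs3 and 9 for Cish. In 24 h M1 against 0 h M0, 8 of the 25 were higher and 2 lower (30.2% of all sites passed), in 96 h M1→M0 against 24 h M1 none was higher and 14 lower (21.5% passed), and in 96 h M1→M0 against 0 h M0 none was higher and 11 lower (18.2% passed). No ATAC-seq library of 96 h M0 was analysed here, so time in culture and earlier M1 treatment cannot be told apart in the last comparison.

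**Figure D4:**
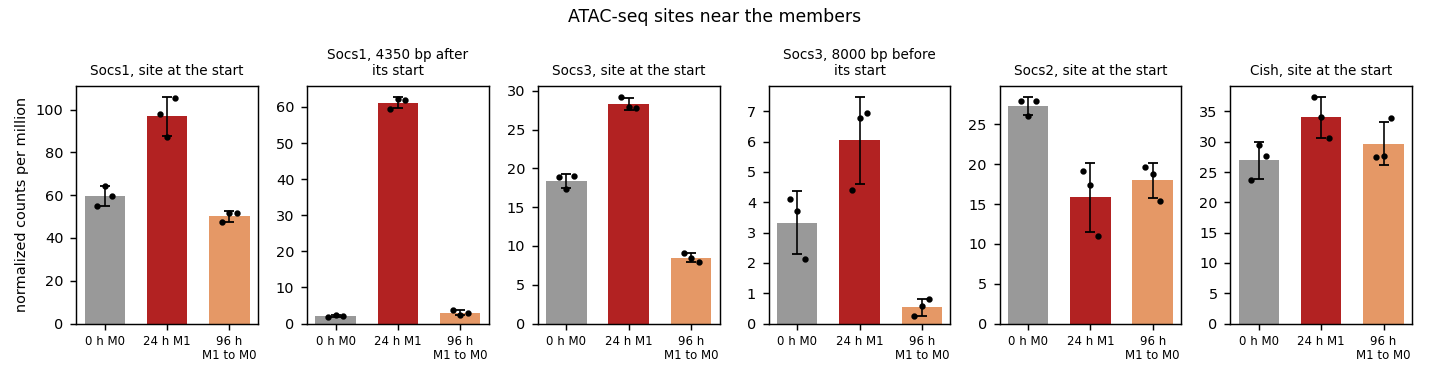
Normalized ATAC-seq counts (CPM with TMM factors) at 6 sites near the members in 0 h M0, 24 h M1 and 96 h M1→M0. Bars are means of 3 libraries, error bars are SD and points are libraries. The site 4350 bp after the start of Socs1 goes from 2.11 to 61.2 and back to 3.01, and the site at the start of Socs3 ends at 8.49, below its level at 0 h.

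All 3 sites of Socs1 opened in M1 and closed again. The site at its start, chr16:10784922-10786632, held 534, 312 and 447 counts in 0 h M0, 312, 670 and 182 counts in 24 h M1 and 392, 367 and 324 counts in 96 h M1→M0, or 59.7 ± 4.8, 96.9 ± 9.0 and 50.2 ± 2.6 CPM with TMM factors, that is counts scaled to library size (SD, n = 3). It holds the promoter window with the paired GAAA repeats. It rose by 0.69 on the log2 scale (edgeR adjusted p = 7.31e-06) and was lower after washout than in 24 h M1 (-0.93, adjusted p = 1.2e-08). The larger change was downstream of the gene, at chr16:10780616-10781755, whose centre lies 4350 bp after the start: 18, 12 and 15 counts in 0 h M0, 189, 477 and 107 in 24 h M1 and 31, 16 and 19 in 96 h M1→M0. It rose by 4.89 (adjusted p = 1.97e-39), was -4.32 after washout (adjusted p = 2.27e-37) and did not pass against 0 h M0 at 96 h (adjusted p = 0.167). A further site, 10709 bp after the start, rose by 2.87 (adjusted p = 2.44e-10).

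Socs3 ended below its starting accessibility. Its site chr11:117968814-117969826, which holds the promoter window with TTCTTAGAA, was at 18.9, 17.4 and 19 CPM in 0 h M0, 29.2, 27.9 and 27.8 in 24 h M1 and 9.05, 8.49 and 7.95 in 96 h M1→M0, with no overlap between conditions. It rose by 0.61 (adjusted p = 0.000228) and was then lower than at 0 h by -1.12 (adjusted p = 1.32e-08). Of the 9 sites of Socs3, 2 were higher in 24 h M1, 9 were lower in 96 h M1→M0 than in 24 h M1 and 8 were lower than in 0 h M0, the furthest being the site centred at -8000 bp from the start (-2.66, adjusted p = 1.29e-05 against 0 h M0). Its rise in M1 was at the limit (0.86, adjusted p = 0.0457) and was not called with DESeq2 (0.14), with RLE factors (0.0595), without a filter (0.0537), with the replicate block (0.105) or without replicate 2 (0.236) or replicate 3 (0.249). The site at -4909 bp was not called lower than at 0 h without any of replicates 1, 2 or 3 (adjusted p = 0.22, 0.121 and 0.081), with DESeq2 (0.0917) or with the replicate block (0.0549), and the site at -6228 bp was not without replicate 1 (0.116), without replicate 2 (0.214) or with DESeq2 (0.0689). Against 24 h M1, the fall of the site at -19 bp was lost without replicate 1, 2 or 3 (adjusted p = 0.0758, 0.0974 and 0.144) and with DESeq2 (0.0613). The falls at 11712 and -9603 bp were lost without replicate 1 (0.0612 and 0.0645). Those at -4909 and -6228 bp were lost without replicate 2 (0.196 and 0.435), and at -4909 bp also without replicate 3 (0.0752). In RNA, Socs3 was at 0.83, 0.49 and 0.52 FPKM in 96 h M1→M0 and at 3.08, 3.56 and 1.84 FPKM in 0 h M0. In 96 h M0 it was at 0.73, 0.71, 1.16 and 0.59 FPKM.

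Socs2 was less accessible at its start already in M1. The site at its start, chr10:95416510-95418193, was at 27.9, 26 and 28 CPM in 0 h M0, 19.2, 17.3 and 11 in 24 h M1 and 19.7, 18.8 and 15.4 in 96 h M1→M0. Every M1 and M1→M0 library was below every 0 h library. It fell by 0.71 in M1 (adjusted p = 9.48e-05) and at 96 h was still lower than at 0 h by -0.60 (adjusted p = 0.000323), with no difference called between the later conditions (0.11, adjusted p = 0.672). A small site centred at -5698 bp from the start rose in M1 (1.28, adjusted p = 0.00779; 1.13, adjusted p = 0.0732 without replicate 1).

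Cish changed least at its start. The site chr9:107295965-107297179, which holds the pair of TTCNNNGAA matches, was at 23.6, 29.5 and 27.7 CPM in 0 h M0, 37.4, 34 and 30.7 in 24 h M1 and 27.5, 27.7 and 33.9 in 96 h M1→M0. The rise in M1 was 0.37 (adjusted p = 0.0307) and was not called with DESeq2 (0.153), with RLE factors (0.0702), without replicate 1 (0.584) or without replicate 3 (0.0571). At 96 h it did not pass against either condition. The other called sites of Cish were small, below 9 CPM in every condition mean.

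In single cells Socs1 and Socs3 were highest in the M1 libraries and Socs2 and Cish in the M2 libraries, with 1 library per condition and therefore no test. The 7 libraries held 2446 to 5985 cells with a median of 1025 to 2529 UMIs per cell, lowest in 0 h M0, and pairs of libraries shared 6 to 25 barcodes (0.22% to 1.02% of the smaller library). Levels are given as CPM, the UMIs of a gene scaled to all UMIs of the library, with exact Poisson intervals of 95% that cover counting error only. Shares of cells are given after each cell was thinned to 500 UMIs, with exact binomial intervals. This left out 400 cells of 0 h M0 and none elsewhere. No cell type that should lack these genes was defined here, so a background share from free RNA could not be given beside them. The M0 libraries show the lowest levels measured the same way. They do not measure free RNA in the M1 and M2 libraries, where these genes were higher.

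**Figure D5:**
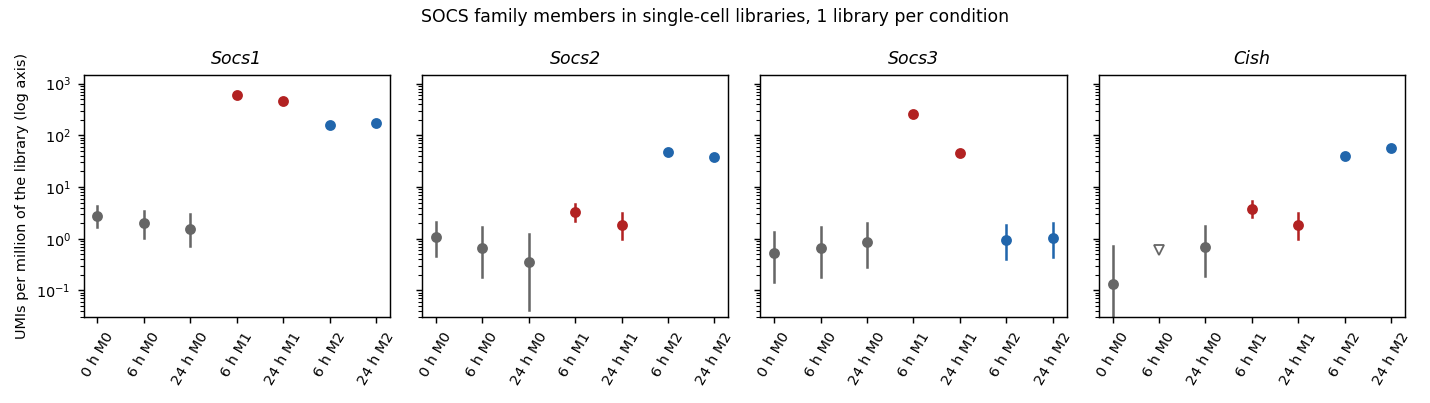
Level in CPM of each member on a log axis, in 7 single-cell libraries, 1 per condition. Bars are exact Poisson intervals, cut at the lower edge of the axis, and the open triangle is the upper limit where no UMI was found. Socs1 and Socs3 are highest in 6 h M1, and Socs2 and Cish are highest in the M2 libraries.

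Socs1 was found at 2.77 (interval 1.72 to 4.24) CPM at 0 h and at 1.99 and 1.57 CPM after 6 and 24 h of M0, at 593 (577 to 609.7) in 6 h M1 and 461 (446 to 477) in 24 h M1, and in M2 at 158 (149.5 to 167) after 6 h and 171 (162 to 181) after 24 h. After thinning, 21.2% (19.9 to 22.7) of 6 h M1 cells had a UMI, 17.4% of 24 h M1, 5.61% of 6 h M2 and 7.08% of 24 h M2 cells, against 0.09% of 0 h M0 cells. Without thinning these shares were 58.5%, 51.9%, 26.2% and 26.2%, against 0.35%. The gene was thus seen in a large part of the M1 cells without thinning, and the part of this share that came from free RNA is not known.

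Socs3 was at 260.5 (249.9 to 271) CPM in 6 h M1 and 44.5 (39.8 to 49.7) in 24 h M1, and between 0.53 and 1.03 in the 3 M0 and 2 M2 libraries. Thinned shares were 10.6% (9.58 to 11.7) in 6 h M1 and 1.97% (1.49 to 2.55) in 24 h M1 (39.7% and 9.04% unthinned).

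Cish was at 39.4 (35.3 to 43.8) in 6 h M2 and 57.5 (52.3 to 63.1) in 24 h M2, at 3.77 (2.59 to 5.29) in 6 h M1 and 1.83 (0.97 to 3.12) in 24 h M1, and at 0.13 in 0 h M0, from 1 UMI. Its thinned share was 1.77% (1.31 to 2.34) of cells in 6 h M2 and 2.87% (2.30 to 3.54) in 24 h M2 (10.5% and 12.8% unthinned), so most cells gave no Cish UMI at this depth. The single-cell times, 6 and 24 h, lie after the M1 pulse seen in bulk at 2 and 4 h.

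Socs2 was at 47.8 (43.2 to 52.7) in 6 h M2 and 38.1 (33.9 to 42.7) in 24 h M2, with thinned shares of 1.44% (1.03 to 1.96) and 1.57% (1.15 to 2.09) and unthinned shares of 11.8% and 8.55%. In 6 h M1 it was at 3.31 (2.22 to 4.75), from 29 UMIs, above the 0.66 (0.18 to 1.70) of 6 h M0. These M1 UMIs were not spread over the cells: 24 of the 29 lay in the 79 cells with a UMI of Ccr7, a chemokine receptor of mature dendritic cells, among 3248 cells, or 95.2 (61 to 142) CPM in those cells against 0.59 (0.19 to 1.37) in the rest. In 24 h M1, 10 of 13 Socs2 UMIs lay in 27 Ccr7-positive cells. The 29 UMIs of 6 h M1 came from only 14 cells, with up to 8 in 1 cell, and the 13 of 24 h M1 from 7 cells, with up to 5 in 1 cell. UMIs of the same cell are not independent counts, so these intervals are too narrow. How many of the Ccr7-positive cells held a Socs2 UMI is not given here. No cell of the other libraries had a UMI of Ccr7. Markers of dendritic cells (4 of 4 listed) summed to 67.2 CPM in 6 h M1 and 31.3 in 24 h M1, where 2 of the 4 had no UMI. In the other libraries they summed to 0.66 to 2.06. Ccr7, which picked the cells above, is itself part of this sum. The part of these markers in the Socs2 level of the M1 libraries was not tested.

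Cish was also uneven, from few UMIs. In 6 h M1 it was at 19.8 (6.44 to 46.3) CPM in Ccr7-positive cells, from 5 UMIs, against 3.29 (2.19 to 4.76) in the rest, and in 24 h M1 at 42.9 (11.7 to 109.8), from 4 UMIs, against 1.28 (0.59 to 2.43). In Ccr7-positive cells of 6 h M1, Socs1 was at 611 (518 to 715) CPM against 593 (576.5 to 609) in the rest, and Socs3 at 385 (312 to 469) against 257 (246 to 268). In all 7 libraries macrophage markers (6 of 7 listed) summed to between 6035 and 19420 CPM and megakaryocyte markers (2 of 2) to between 2705 and 8143. Which cells held the megakaryocyte markers, Pf4 and Ppbp, is not given here, so their sum is no count of megakaryocytes. Neutrophil markers (8 of 8) summed to between 3.6 and 25.6 and B cell markers (3 of 4) to between 0.80 and 16.9. Fibroblast markers (3 of 3) summed to at most 1.83, while markers of T and NK cells, mast cells and erythroid cells were at 0.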

How the data were processed

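The deposited files hold bulk RNA-seq, ATAC-seq and single-cell RNA-seq of mouse macrophages. Bulk reads were aligned by the authors with TopHat2 2.0.14 to mm10; they then quantified them with Cuffquant and Cuffnorm 2.2.2 and deposited log10(FPKM + 1) values, filtered to genes of at least 10 FPKM in 1 sample. For ATAC-seq the authors removed duplicates with SAMtools 1.9, called sites with MACS2 2.1.0 on merged alignments and deposited raw counts from bedtools 2.28.0. Whether site starts count from 0 or 1 is not stated. Single-cell UMI counts were deposited by the authors from Cell Ranger, whose version is not given in the sources used here.

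Log10 values were converted to log2(FPKM + 1), a scale that understates the change of low genes, and 1 limma 3.58.1 model (R 4.3.3) with a mean per condition and an intensity trend was fitted to all 8307 genes. p-values were adjusted over all genes by Benjamini-Hochberg with a threshold of 0.05. The study's own bulk test needs reads and was not used here. ATAC-seq sites with more than 10 counts in at least 1 library went into the quasi-likelihood test of edgeR 4.0.16 with TMM factors. Single-cell libraries were summed, cells were thinned to 500 UMIs, no doublet caller was run and no cell was removed except for thinning (Python 3.11.15, numpy 2.4.6, scipy 1.17.1). Scripts were tested on simulated data.

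Groups and replicate numbers came from the labels. Whether equal replicate numbers pair libraries was checked from the correlation of their deviations from the condition means: every pair exceeded 0.1 in 28 of 36 bulk comparisons and not in the other 8, nor in ATAC-seq. The members and lists were chosen with earlier results of these data known. Named genes were the members, the rest of the family, up to 4 genes of each pathway list with the largest change among those that passed, and the 3 genes most correlated with each member over condition means, leaving out predicted genes. A gene that this rule would name is not reported here. Fscn1 and Ccr7 were named as cell markers, and Stat6, Il2rg, Stat5a and Il4ra also for their place in IL-4 signalling, after their values were seen. Alternatives were 0.1 FPKM added before the log, other scalings, an expression filter, a replicate block, fits of only the conditions compared, leaving out each replicate, RLE factors, no filter and DESeq2 1.42.0 for ATAC-seq, and other thinning or averaging for single cells.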

Additional observations from a re-analysis of the deposited data

Results flagged for a closer look

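Socs1 in 96 h M0 had 1 library far from the others: the 4 libraries were at 0.66, 0.74, 1.82 and 0.74 FPKM, and the gap of the highest library to its neighbour was 0.932 of the range, above Dixon's limit for 4 samples. Groups of 4 were tested 8 times, and chance marks about 1 in 20. The effect of IL-4 on Socs2 differed between former M1 cells and first M2 cells by the test of the difference itself (-2.59 on the log2 scale, limma adjusted p = 2.52e-08).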

How the results depend on the processing

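Over 107 bulk results and 968 alternative values, 901 kept their direction and side of the threshold, 38 lost the call, 28 gained it and 1 changed sign. The sign change was Socs2 at 1 h M2 against 0 h M0, which was never called and ranged from -0.0059 to 1.02 when each replicate was left out. Calls in the switch from M2 to M1, 8 in the report, ranged from 4 (without replicate 3) to 12 (without replicate 1) when each replicate was left out, and were 5 without replicate 2. Calls in the difference of effects, 1 in the report, ranged from 1 to 2 when each replicate was left out, were 2 with the replicate block and 2 when only the groups compared were fitted. The replicate block changed 3 of 107 bulk calls, gaining Socs1 at 26 h M2→M1 (adjusted p = 0.0453), Cish at 36 h M1→M2 (0.0293) and the Cish difference of IL-4 effects (0.0413), and 3 of 35 ATAC-seq calls. Equal numbers were not shown to pair the libraries of the 36 h M1→M2 comparison. Of 244 alternative values for ATAC-seq, 202 kept the call and 42 lost it, with calls between 25 (without replicate 1) and 34 (no filter) against 35. Of 86 single-cell values, 50 stayed within their counting interval and 36 moved. The cause was not tested. Bulk depth is unknown, replicate 3 of 24 h M1 limits small ATAC-seq sites, and 1 single-cell library a condition allows no test.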
